A study of Homo sapiens with 8 samples.

Results

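The genes described here encode the proteins of the human cytosolic ribosome, taken from a count table by gene symbol. The rule took RPL or RPS followed by a number, with an added A or X where the symbol has one, together with RPLP0, RPLP1, RPLP2, RPSA and FAU, and left out numbered pseudogenes. It found 78 of 35394 genes, 46 of the large ribosomal subunit and 32 of the small one. All 78 passed the filter on low counts, which kept 15006 genes.

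The cells were HCT116, a human colorectal cancer line, which the labels describe as colon epithelial cells with a ras mutation in both groups. In 1 group (PZH) the cells had received Pien Tze Huang, a formula of traditional Chinese medicine, for 24 h, and in the other (DMSO) they had received the solvent as the control, with 4 libraries per group. The sources used here give neither the dose of PZH nor the time in DMSO. The title of the study links the medicine to reactive oxygen species and to the growth of colorectal cancer, and the comparison asks how the genes of this line differ after treatment. Both groups are 1 established line, and the labels say no more of a replicate than its number, so p-values measure the spread between these samples, which may be technical.

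Each subunit of the ribosome is built from ribosomal RNA and a fixed set of proteins, nearly all present in a single copy, so cells make these proteins in matched amounts. Their mRNAs are short and abundant, and most begin at a cytosine followed by a run of pyrimidines, the 5′ terminal oligopyrimidine (TOP) motif. Through this motif the kinase mTORC1 and the RNA-binding protein LARP1 control how TOP mRNAs are translated and how long they are stored. Rapidly dividing epithelial cancer cells are known to carry large amounts of them.

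The sequences around the transcription start show this shared feature and where it is missing. RefSeq promoter entries on GRCh38.p14 matched 63 of the 78 genes; RPL23, RPL23A, RPL30, RPL37, RPL5, RPL7, RPL8, RPS15A, RPS2 and RPS20 were among the 15 not matched. Each sequence below runs 5′ to 3′ on the gene's own strand, with 15 bases upstream of the annotated start and 15 bases from the start onward, which lie in the first exon. Capitals mark the longest unbroken run of C and T that touches the stretch from 5 bases before to 6 bases after the start. The first 4 belong to members with large differences between the groups. RPL3 and RPS15 lack a run of 8, and RPL7A, RPS26 and RPSA have such a run but small differences. The genes of 3 pairs of member and paralog follow, then RPL7L1, RPL36AL, and 2 partners outside the rule, RACK1 and EEF1A1.
RPL10: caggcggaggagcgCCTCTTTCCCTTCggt
RPL36A: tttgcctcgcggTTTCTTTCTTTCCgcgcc
RPS13: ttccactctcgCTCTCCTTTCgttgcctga
RPS18: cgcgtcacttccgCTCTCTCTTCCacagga
RPL3: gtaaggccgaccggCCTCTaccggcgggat
RPS15: tgcgcaggcgcggaCCaaagcgatctcttc
RPL7A: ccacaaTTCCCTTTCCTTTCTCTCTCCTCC
RPS26: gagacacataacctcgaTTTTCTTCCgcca
RPSA: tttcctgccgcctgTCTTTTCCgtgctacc
RPL22: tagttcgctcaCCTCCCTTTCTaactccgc
RPL22L1: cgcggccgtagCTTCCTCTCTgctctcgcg
RPL26: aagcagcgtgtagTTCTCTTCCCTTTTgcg
RPL26L1: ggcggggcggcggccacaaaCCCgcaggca
RPS27: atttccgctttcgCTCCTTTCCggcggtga
RPS27L: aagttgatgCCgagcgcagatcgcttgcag
RPL7L1: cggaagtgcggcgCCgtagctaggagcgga
RPL36AL: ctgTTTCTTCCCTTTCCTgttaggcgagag
RACK1: ggggggCTTTTCTCTCTCTCTTTCactgca
EEF1A1: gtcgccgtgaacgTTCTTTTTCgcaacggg

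These windows lie at chrX:154398362-154398391 (RPL10, plus strand), chrX:101390996-101391025 (RPL36A, plus), chr11:17077653-17077682 (RPS13, minus), chr6:33272060-33272089 (RPS18, plus), chr22:39319609-39319638 (RPL3, minus), chr19:1438381-1438410 (RPS15, plus), chr9:133348203-133348232 (RPL7A, plus), chr12:56041903-56041932 (RPS26, plus) and chr3:39406705-39406734 (RPSA, plus). The paired windows are at chr1:6199581-6199610 (RPL22, minus), chr3:170870181-170870210 (RPL22L1, minus), chr17:8383179-8383208 (RPL26, minus), chr5:172958865-172958894 (RPL26L1, plus), chr1:153990747-153990776 (RPS27, plus) and chr15:63157463-63157492 (RPS27L, minus). The others are at chr6:42879601-42879630 (RPL7L1, plus), chr14:49620612-49620641 (RPL36AL, minus), chr5:181243892-181243921 (RACK1, minus) and chr6:73521018-73521047 (EEF1A1, minus). A run of at least 8 letters, each C or T, on the gene's strand at this place was found in 52 of the 63 members, or 82.5%, and in 14.1% of the 27305 genes in the promoter table. Where a gene had several listed starts, the one with the longest run was used. The median run was 12 letters in the members and 4 in all genes. The longest run of a member was 25 letters, in RPL7A, which goes 1 letter beyond the window shown. A run is a description of the letters and not a measured start or site of control.

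1 library in each group stood apart in these genes. PZH replicate 2 had the highest level of the PZH libraries, in CPM (counts divided by the size of their library, here after TMM scaling), in 76 of the 78 members, or 97.4%, while it was highest in 26.3% of all genes tested. DMSO replicate 2 was the highest DMSO library in 60 of the 78, or 76.9%, against 24.4% of all genes tested. The pattern was not particular to these genes. Among 77 tested ribosomal protein genes of the mitochondrion, PZH replicate 2 was the highest PZH library in 61.0% and DMSO replicate 2 the highest DMSO library in 49.4%. Relative to the DMSO mean, the median member's log2 level was 0.54, 0.86, 0.58 and 0.51 in PZH replicates 1 to 4. Values without PZH replicate 2 are given beside the main counts, medians and shares; it was left out only in the analysis with TMM scaling and in the shares. The spread was wider after treatment, with a median coefficient of variation of 4.04% in DMSO and 10.4% in PZH, against 2.59% and 5.49% for other genes of at least 100 CPM.

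Ribosomal protein mRNA took a larger share of the counts in every PZH library than in any DMSO library. The 78 genes held 6.24%, 6.50%, 6.11% and 6.11% of all counts in DMSO replicates 1 to 4 and 7.67%, 8.82%, 7.62% and 7.24% in PZH replicates 1 to 4. The mean share was 6.24% ± 0.185 in DMSO and 7.84% ± 0.682 in PZH (SD, n = 4 each), a ratio of 1.26 between the means. The groups did not overlap, and PZH replicate 2 stood above the other PZH libraries. Without that library the difference of the means was 1.27 percentage points, against 1.59 with it. These are shares of bulk libraries, in which more ribosomal protein mRNA per cell and less of other mRNA cannot be told apart. Over the same libraries the 10 most abundant other genes went from 5.77% ± 0.0631 to 10.3% ± 0.411 of the counts, and mitochondrially encoded genes took 4.64% ± 0.203 and 4.60% ± 0.129; the part of these shares in the result was not tested.

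Both subunits took part, the large one slightly more in summed counts. Large subunit genes held 3.86% ± 0.11 of the counts in DMSO and 4.93% ± 0.410 in PZH, and small subunit genes 2.38% ± 0.0757 and 2.90% ± 0.273. Without PZH replicate 2 the differences of the means were 0.873 and 0.394 percentage points. For each count of a small subunit gene there were 1.62 ± 0.00955 counts of large subunit genes in DMSO and 1.70 ± 0.0228 in PZH (SD, n = 4). The 4 DMSO libraries lay between 1.61 and 1.63 and the 4 PZH libraries between 1.68 and 1.73, so this ratio, which no scaling of libraries can move, did not overlap either. It was highest in PZH replicate 4, the library with the smallest share of ribosomal protein counts in its group. Abundant genes weigh most in such sums. RPS2 of the small subunit, the most abundant member in DMSO by CPM, went against its subunit in unscaled counts. It had 53054, 54911, 53249 and 51018 counts in DMSO and 39030, 45931, 39908 and 38424 in PZH. After TMM scaling it did not pass in either direction (log2 fold change -0.04, edgeR adjusted p = 0.537). With RPS2 taken out of the small subunit sums, the ratios of the DMSO and PZH libraries overlap. The lack of overlap thus depends on this gene, and the ratio does not describe the subunits gene by gene.

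**Figure D1:**
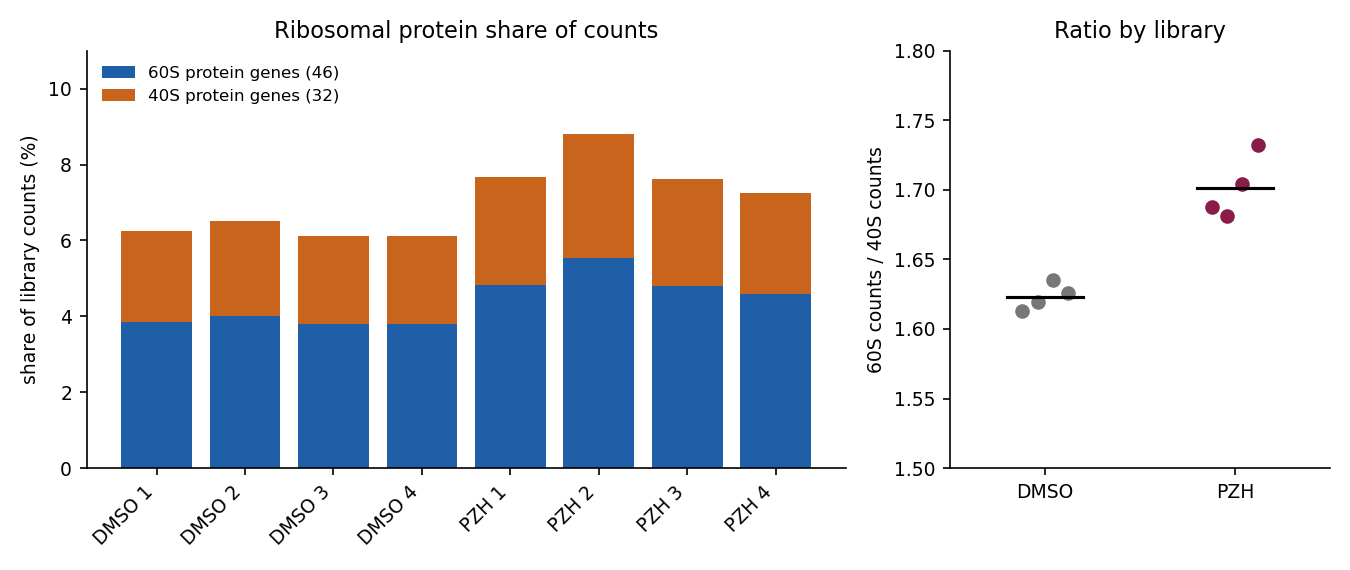
Left, the share of each library's counts (percent) held by the 46 large (60S) and 32 small (40S) subunit genes, stacked, for DMSO and PZH replicates 1 to 4. Right, the ratio of large to small subunit counts in each library as points with the group mean as a line, on an axis that does not start at 0. With RPS2 included, the 4 PZH libraries sit between 1.68 and 1.73 and the 4 DMSO libraries between 1.61 and 1.63.

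PZH libraries were compared with DMSO libraries gene by gene with edgeR's quasi-likelihood test over all genes tested, with TMM scaling, which sets library totals so that most genes have no change on average, and a Benjamini-Hochberg adjusted p under 0.05. By this test 77 of the 78 genes were higher in PZH and 0 were lower. Of all genes tested 39.3% were higher and 40.9% lower, 80.3% in all, and of the 2041 other genes with a mean of at least 100 CPM, 53.7% were higher and 35.7% lower. All 46 large subunit genes and 31 of 32 small subunit genes rose, and the exception was RPS2. The 4 DMSO and 4 PZH libraries did not overlap, with PZH above, for 75 of the 78, against 36.6% of all genes tested with PZH above and 38.4% with PZH below; RPS2, RPSA and RPL35 overlapped. Without PZH replicate 2, 76 members were higher, RPSA no longer passed (edgeR adjusted p = 0.0823), and the median log2 fold change was 0.54 over the members, 0.55 over the large subunit and 0.53 over the small one.

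The size of the difference varied less among these genes than among genes at large. The median log2 fold change was 0.63 over the 78 (a 1.55-fold higher level), 0.65 over the large subunit (1.57-fold) and 0.62 over the small subunit (1.54-fold), while over all genes tested it was -0.02. Log2 fold changes ran from -0.04 to 1.27, with an interquartile range of 0.197 against 1.39 for all genes tested. By size, 4 genes were under 1.2-fold, 27 from 1.2-fold to 1.5-fold, 40 from 1.5-fold to 1.8-fold, 5 from 1.8-fold to 2-fold, and 2 (RPL36A and RPL10) above that. The members share their libraries, so these counts and medians describe the set and are not a test of it.

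Scaling moved every gene by about the same step. With library totals alone, and no scaling factors, the median over all genes tested shifted by -0.26, and 67 of the 78 members were higher, 2 were lower and 9 passed in neither direction. In that analysis 29.8% of all genes tested were higher and 51.1% lower. The large subunit gave 41 higher and 0 lower, and the small subunit 26 higher and 2 lower, RPS2 and RPS26. The median of the members was 0.37, a 1.3-fold higher level. Relative to the median of all genes tested it stood 0.66 higher on the log2 scale with TMM and 0.66 higher without. Libraries did not overlap, with PZH above, for 58 members on this scale and, with PZH below, for 2, against 27.4% and 48.2% of all genes tested.

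**Figure D2:**
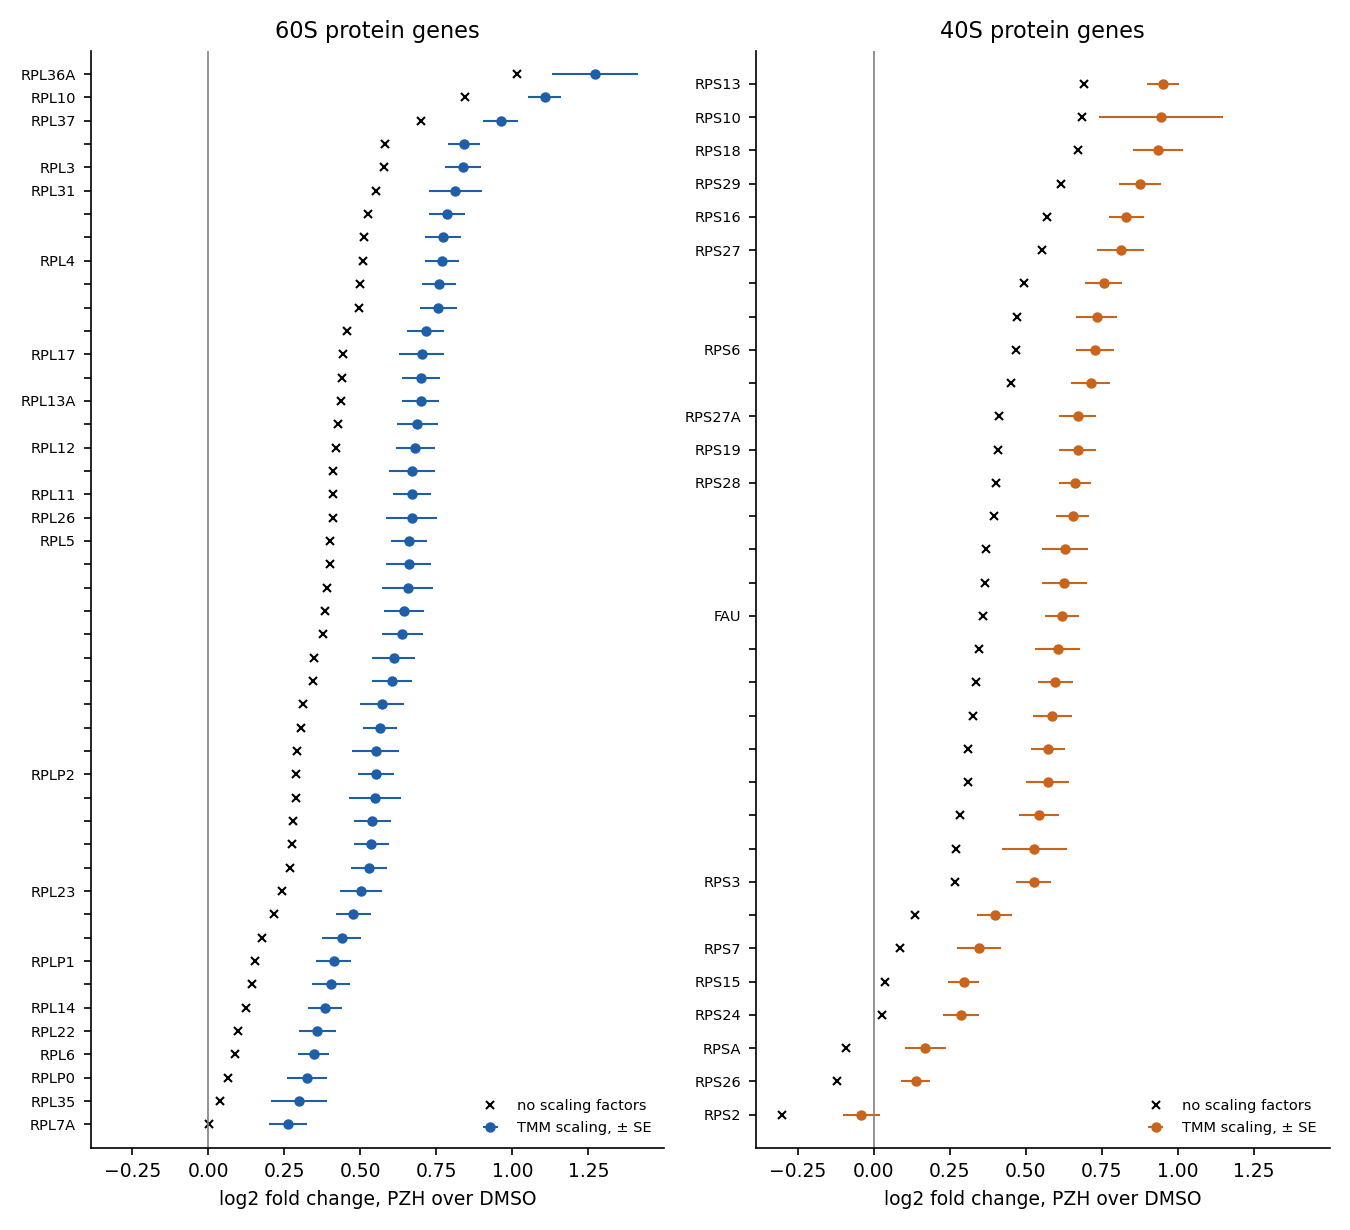
Log2 fold change, PZH over DMSO, of each of the 46 large (left) and 32 small (right) subunit genes, in order of size and partly labelled; filled points with bars are TMM-scaled values ± SE and crosses are values without scaling factors. The values run from -0.04 (RPS2) to 1.27 (RPL36A), and the crosses lie to the left of the points by about the same distance for each gene.

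In the large subunit RPL10 had the largest difference among well-covered genes. RPL10 is a late-joining protein near the peptidyl transferase centre, whose joining is tied to the release of the export factor NMD3. Its level was 844, 889, 835 and 860 CPM in the DMSO libraries and 1725, 1988, 1834 and 1832 CPM in the PZH libraries. The groups lay far apart, at 857 ± 23.7 and 1845 ± 108 CPM (SD, n = 4), a 2.15-fold rise (log2 fold change 1.11 ± 0.05 SE, edgeR adjusted p = 9.2e-15). It went from place 54 to place 35 among the 78 genes by CPM per kilobase.

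RPL37, RPL3 and RPL31 were among the genes that followed. RPL37 went from 418, 455, 412 and 417 CPM in DMSO to 781, 935, 803 and 794 CPM in PZH, 1.95-fold. RPL3, a large protein that reaches into the peptidyl transferase centre, went from place 11 to place 4 among the 78 by CPM per kilobase. Its libraries gave 2135, 2177, 2080 and 2079 CPM in DMSO and 3591, 4232, 3691 and 3619 CPM in PZH, 1.79-fold (log2 fold change 0.84 ± 0.06 SE, edgeR adjusted p = 7.9e-12), although its window holds a run of 5 letters only. RPL31, at the rim of the exit tunnel, rose 1.76-fold. RPL4, another abundant protein that lines the exit tunnel, rose 1.70-fold from 2066 ± 73.7 to 3518 ± 226 CPM. In all of these genes every PZH library was above every DMSO library.

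At the other end of the large subunit stood RPL7A, RPL35, RPLP0, RPL6, RPL22 and RPL14. RPL7A gave 1393, 1520, 1436 and 1413 CPM in DMSO and 1601, 1996, 1688 and 1625 CPM in PZH, a 1.2-fold rise (log2 fold change 0.26 ± 0.06 SE, edgeR adjusted p = 6.7e-04). It holds the longest pyrimidine run of the matched members and the smallest difference of its subunit. Without scaling factors its log2 fold change was 0.0013 and did not pass (edgeR adjusted p = 0.984). RPL35 was the 1 large subunit gene whose groups overlapped: DMSO libraries had 319, 366, 331 and 322 CPM and PZH libraries 395, 535, 384 and 332 CPM. Its log2 fold change was 0.30 ± 0.09 SE (edgeR adjusted p = 0.0052), with DESeq2 it did not pass (adjusted p = 0.055), and leaving out single libraries moved it between 0.15 and 0.40. It also did not pass without scaling factors (log2 fold change 0.039, edgeR adjusted p = 0.702) or with each library's trend on transcript length removed, an analysis added after seeing the data (0.0085, edgeR adjusted p = 0.932). RPL6, RPL22 and RPL14 rose with log2 fold changes of 0.35, 0.36 and 0.38; without scaling factors RPL6 (0.086, edgeR adjusted p = 0.0709) and RPL22 (0.097, edgeR adjusted p = 0.106) did not pass.

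The stalk of the large subunit, which recruits translation factors, is made of RPLP0, RPLP1 and RPLP2, with RPL12 at its base. All 4 genes of this list rose, as did 77 of all 78 members, with a median of 0.48. RPLP0, the scaffold of the stalk, had 2356, 2514, 2379 and 2325 CPM in DMSO and 2887, 3466, 2941 and 2694 CPM in PZH, 1.25-fold. RPLP1 rose 1.33-fold (877 ± 47.4 to 1167 ± 89.7 CPM) and RPLP2 1.46-fold (664 ± 15.4 to 973 ± 91.6 CPM). RPL12 rose 1.6-fold, from 1072, 1145, 1067 and 1054 to 1625, 2016, 1695 and 1618 CPM. The scaffold therefore had the smallest fold of the list, and the DMSO and PZH libraries were apart in each of the 4. RPLP0 did not pass without scaling factors (log2 fold change 0.06, edgeR adjusted p = 0.309).

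RPL5 and RPL11 travel with the 5S ribosomal RNA as a particle that can bind MDM2, the ligase that degrades p53, and RPL23 can bind it too. All 3 rose. RPL5 went from 1053, 1068, 980 and 1063 CPM in DMSO to 1601, 1841, 1578 and 1561 CPM in PZH, 1.58-fold (log2 fold change 0.66 ± 0.06 SE, edgeR adjusted p = 4.4e-10). RPL11 went from 564, 620, 629 and 584 to 913, 1086, 852 and 961 CPM, 1.59-fold. RPL23 rose 1.42-fold, from 549 ± 26.5 to 777 ± 103 CPM. RPL5 and RPL11 thus stood close to the median of the large subunit, and RPL23 below it. Around the rim of the exit tunnel, where the new chain leaves the ribosome, 8 of 8 listed genes rose, with a median of 0.59. Of all members 77 of 78 rose, and of all genes tested 39.3%. Without scaling factors 6 of the 8 were higher and 2 did not pass.

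In the small subunit RPS13, RPS10, RPS18, RPS29, RPS16 and RPS27 differed most. RPS13 gave 449, 457, 433 and 448 CPM in DMSO and 807, 955, 853 and 841 CPM in PZH, 1.93-fold (log2 fold change 0.95 ± 0.05 SE, edgeR adjusted p = 1.5e-13). RPS18, a protein of the head of the subunit, went from 1214, 1288, 1160 and 1156 to 2226, 2873, 2130 and 1972 CPM, 1.91-fold. RPS29 rose 1.84-fold, RPS16 1.78-fold and RPS27 1.76-fold. Divided by transcript length, RPS18 was the third most abundant of the 78 in DMSO at 1965 CPM per kilobase and the most abundant in PZH at 3752 CPM per kilobase. In each of these genes the PZH libraries lay above all DMSO libraries.

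RPS2, a protein of the mRNA entry channel, was the exception. Divided by transcript length it was the most abundant of the 78 in DMSO, at 2523 CPM per kilobase, and the seventh in PZH, at 2452 CPM per kilobase. Its libraries gave 2422, 2599, 2480 and 2438 CPM in DMSO and 2209, 2713, 2411 and 2328 CPM in PZH. The 2 groups overlapped, with a log2 fold change of -0.04 ± 0.06 SE (edgeR adjusted p = 0.537). Without scaling factors it was lower in PZH (log2 fold change -0.30, edgeR adjusted p = 9.5e-06). With each library's trend on GC content removed, an analysis added after seeing the data, it was higher (0.17, edgeR adjusted p = 0.022), so neither its direction nor its call was settled by these data. Pseudogene copies held 18.3% of the counts of RPS2 and its copies together; the most counted copy, RPS2P5, had a log2 fold change of 0.15. The other 2 genes of the entry channel list rose: RPS3, which lies at the mouth of the channel, 1.44-fold from 1312 ± 48.9 to 1889 ± 148 CPM, and FAU.

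RPSA and RPS26, on the side where mRNA leaves the subunit, moved least among the small subunit genes that passed. RPSA, also known as the laminin receptor precursor, gave 1973, 2074, 1921 and 1871 CPM in DMSO and 2130, 2586, 2116 and 1980 CPM in PZH. These groups overlapped, with a log2 fold change of 0.17 ± 0.07 SE (edgeR adjusted p = 0.027). Its call was lost without DMSO replicate 1, 3 or 4, with log2 fold changes of 0.17, 0.15 and 0.14 (edgeR adjusted p from 0.0592 to 0.0996). Without PZH replicate 2 the log2 fold change was 0.089 and did not pass, as given above. With upper quartile scaling it was 0.095 (adjusted p = 0.200), and without scaling factors its sign turned (-0.091, edgeR adjusted p = 0.175). RPS26 gave 309, 312, 317 and 317 CPM in DMSO and 338, 322, 364 and 356 CPM in PZH, with no overlap and a log2 fold change of 0.14 ± 0.05 SE (edgeR adjusted p = 0.012). Without scaling factors its sign turned (-0.12, edgeR adjusted p = 0.018), and with upper quartile scaling it did not pass (adjusted p = 0.213). RPS26 was also the member in which PZH replicate 2 was the lowest PZH library. RPS28, the third gene of the exit side list, rose 1.58-fold from 142 ± 8.06 to 224 ± 13.9 CPM, but its pseudogene RPS28P7 held 49.4% of the counts of both, with a log2 fold change of 0.38. RPS24, RPS15 and RPS7 rose by 1.22-fold, 1.23-fold and 1.27-fold and did not pass without scaling factors. With the length trend removed RPS24 (0.10, edgeR adjusted p = 0.118) and RPS15 (0.041, edgeR adjusted p = 0.473) did not pass either.

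RPS6, the substrate of the S6 kinases downstream of mTORC1, was near the upper part of its subunit. It went from 1276, 1267, 1189 and 1180 CPM in DMSO to 1966, 2341, 1939 and 1893 CPM in PZH, 1.66-fold (log2 fold change 0.73 ± 0.06 SE, edgeR adjusted p = 3.3e-10). RPS19, the gene most often mutated in Diamond-Blackfan anaemia, an inherited failure of red cell production, rose 1.59-fold from 618 ± 19.9 to 983 ± 102 CPM. All 19 members on the list of genes mutated in that disease rose, with a median of 0.66, close to that of all members. This is the share of the whole set, in which 77 of 78 rose, beside 39.3% of all genes tested. Without scaling factors 15 of the 19 were higher, 1 was lower and 3 did not pass. On the X chromosome the 4 listed members rose as well, with log2 fold changes from 0.64 to 1.27, and all 4 were higher without scaling factors.

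RPS27A and FAU are made as fusions, the first to ubiquitin and the second to a ubiquitin-like protein, and both rose. RPS27A went from 708, 730, 620 and 705 CPM in DMSO to 1078, 1223, 1030 and 1067 CPM in PZH, 1.59-fold. FAU went from 189, 183, 164 and 188 to 273, 305, 276 and 256 CPM, 1.54-fold. In both genes every PZH library was above every DMSO library.

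For RPS10, RPL36A, RPL17 and RPL26 the table held few counts for a ribosomal protein. RPS10 had 35, 31, 35 and 43 counts in DMSO and 51, 63, 58 and 48 in PZH, and 86.2% of the counts of RPS10 and its pseudogenes together stood under the pseudogenes. RPL36A had 91, 63, 77 and 92 counts in DMSO and 176, 159, 134 and 150 in PZH. RPL17 had 527 to 822 counts and RPL26 667 to 1140. For these 4 the reads may be split with copies or overlapping genes, and the sources used here do not say how the counting treated such reads or strand. The 2.42-fold rise of RPL36A (log2 fold change 1.27 ± 0.14 SE, edgeR adjusted p = 2.7e-08) and the 1.93-fold rise of RPS10 (0.95 ± 0.20 SE, edgeR adjusted p = 2.1e-04) are uncertain. Over all members, 582 pseudogene entries held 3.81 ± 0.0261 counts per 100 member counts in DMSO and 3.61 ± 0.0423 in PZH. For 66 of the 78 they held under 5% of the counts of gene and copies together, and RPL9 (26.5%), RPL26 (26.2%) and RPL7 (16.4%) were among the others. Of the 91 pseudogene entries tested, 67 were higher (73.6%) and 1 lower (1.1%), with a median log2 fold change of 0.68, beside 39.3% and 40.9% of all genes tested. Without scaling factors 44 were higher, 5 lower and 42 did not pass, beside 29.8% and 51.1% of all genes tested.

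Of 5 tested paralogs that the rule leaves out, 1 rose (20%), 2 fell (40%) and 2 did not pass, beside 39.3% of all genes tested higher and 40.9% lower. RPL22L1, a paralog of RPL22 that can take its place in the subunit, fell from 208, 208, 192 and 207 CPM in DMSO to 149, 157, 143 and 124 CPM in PZH (log2 fold change -0.51 ± 0.06 SE, edgeR adjusted p = 3.8e-08). RPL22 itself had 473, 502, 464 and 466 CPM in DMSO and 574, 706, 571 and 590 CPM in PZH, and did not pass without scaling factors, as given above. RPL26L1 fell from 27.6 ± 1.3 to 19.7 ± 2.19 CPM (log2 fold change -0.49 ± 0.08 SE, edgeR adjusted p = 7.9e-06) while RPL26 had 34.8 ± 2.72 and 55.3 ± 8.75 CPM. RPS27L, a target of p53, had 55.6 ± 2.18 and 54.2 ± 5.05 CPM and did not pass (log2 fold change -0.04 ± 0.06 SE, edgeR adjusted p = 0.593). RPL7L1, a relative of RPL7 that is known from ribosome assembly, had 244 ± 6.55 and 244 ± 11.6 CPM and did not pass either (edgeR adjusted p = 0.962). RPL36AL rose from 125 ± 6.51 to 146 ± 7.07 CPM (log2 fold change 0.22 ± 0.05 SE, edgeR adjusted p = 2.8e-04). Without scaling factors RPS27L and RPL7L1 were lower in PZH and RPL36AL did not pass, nor did RPL36AL with the length trend removed (0.092, edgeR adjusted p = 0.0956). RPL3L and RPL39L had too few counts to be tested, and RPL10L was not analysed here.

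The ratio of paralog to member within a library does not depend on scaling. For each 100 counts of RPL22 there were 43.9, 41.5, 41.4 and 44.4 counts of RPL22L1 in DMSO and 26.0, 22.2, 25.1 and 21.0 in PZH. For RPL26L1 against the low-count RPL26 the means were 79.6 ± 6.74 and 35.8 ± 2.68, and for RPS27L against RPS27 11.7 ± 0.825 and 6.55 ± 0.718 (SD, n = 4). The reads of RPL26 may be split with copies, as given above, so the size of its ratio is uncertain. RPL7L1 against RPL7 had 14.9 ± 0.594 and 10.1 ± 0.627, and RPL36AL against the low-count RPL36A had 3394 ± 735 and 1603 ± 139. In 5 of 5 pairs the ratio was lower in every PZH library than in any DMSO library, with an exact two-sided permutation p of 0.0286 for each, the smallest that 70 assignments allow, and 0.0286 adjusted over the 5 pairs. No such share was computed over other pairs of genes. For single genes, libraries did not overlap with PZH above in 36.6% of all genes tested and with PZH below in 38.4%. The pairs were chosen with earlier results of these data known. The values describe counts of gene and paralog that changed unequally, not which of the 2 stayed still, and for RPL26 and RPL36A they are uncertain.

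**Figure D3:**
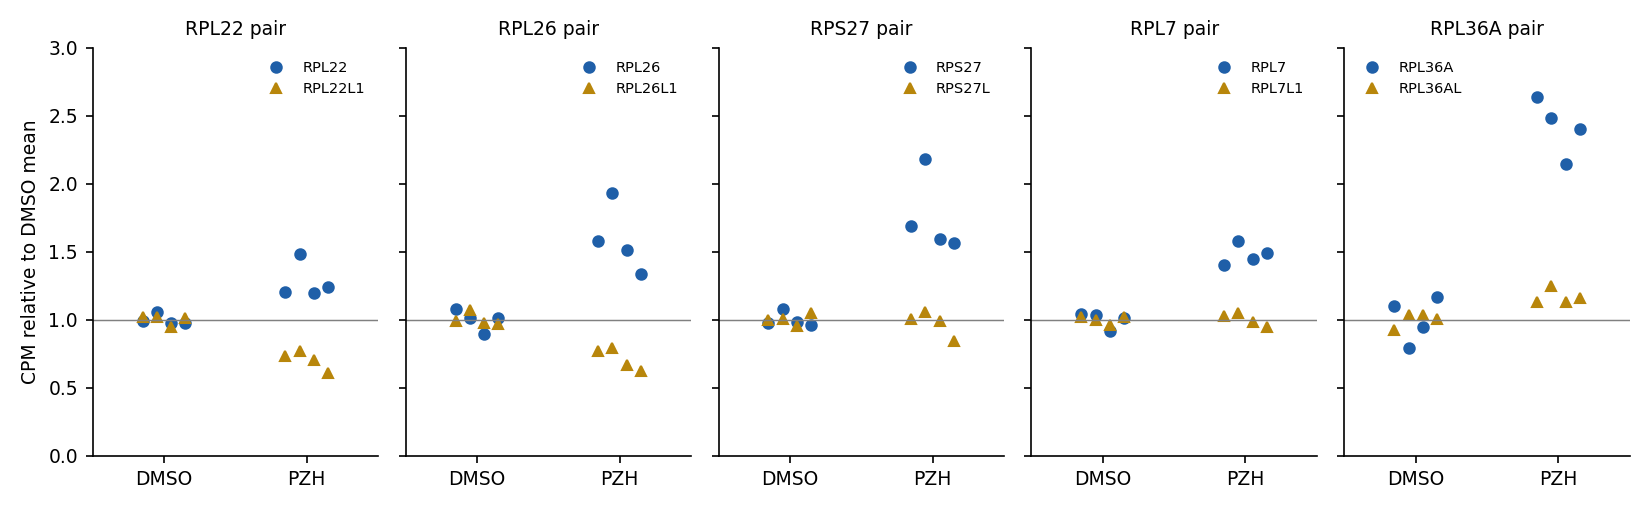
CPM of 5 members (circles) and their paralogs (triangles) in each of the 4 DMSO and 4 PZH libraries, divided by the gene's own DMSO mean, with a line at 1. In every pair the circles of PZH lie above the triangles of PZH, and those of RPL22L1 and RPL26L1 lie below the line.

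The differences were set beside the pyrimidine run. The 52 matched members with a run of at least 8 letters had a median log2 fold change of 0.66 and a range of 0.14 to 1.27. The 11 without one had a median of 0.63 and a range of 0.30 to 0.88. RPL26L1, RPS27L and RPL7L1 have runs of 3 letters or fewer at their annotated starts, RPL22L1 has one of 10 and RPL36AL one of 15.

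**Figure D4:**
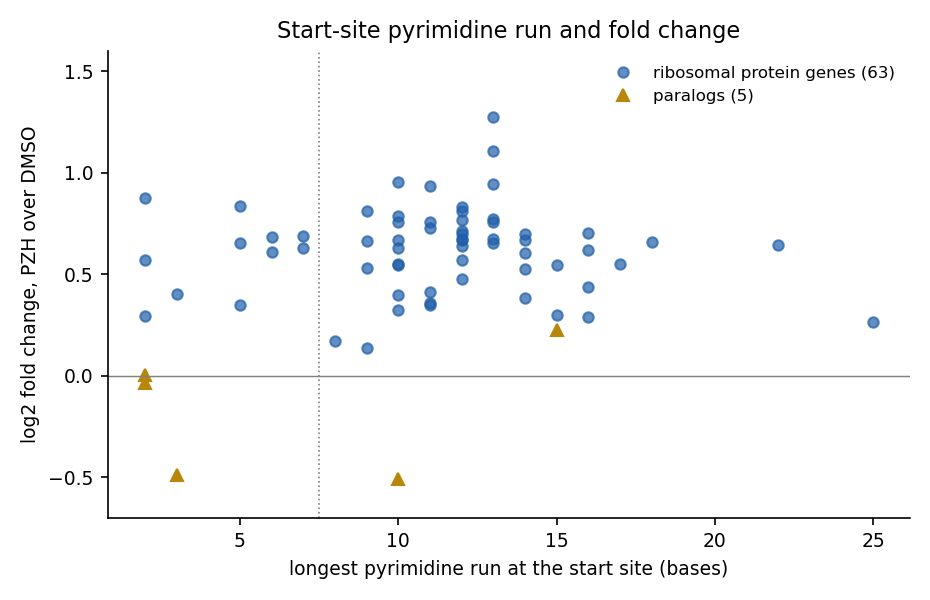
Log2 fold change, PZH over DMSO, against the longest pyrimidine run at the annotated start (bases) for 63 ribosomal protein genes (circles) and 5 paralogs (triangles); the dotted line separates runs of at least 8. Members right of the line run from 0.14 to 1.27 with a median of 0.66, and those left of it from 0.30 to 0.88 with a median of 0.63.

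Other genes with TOP mRNAs were described with a list of translation factors and related genes outside the rule. Of 19 tested, 15 rose (78.9%), 1 fell (5.26%) and 3 did not pass, with a median of 0.46, beside 39.3% and 40.9% of all genes tested. Without PZH replicate 2, 15 were higher and 2 lower. EEF1A1, the elongation factor that brings transfer RNA to the ribosome, rose 2.66-fold, from 11356 ± 281 to 30166 ± 2326 CPM. TPT1 rose from 845 ± 21.8 to 1947 ± 144 CPM (log2 fold change 1.2), EEF2, which moves the ribosome along the mRNA, from 3128 ± 87.0 to 6065 ± 486 CPM (0.96), and NACA, a part of the chain-binding complex NAC, from 524 ± 4.39 to 839 ± 45.6 CPM (0.68). RACK1, a scaffold protein on the small subunit, rose from 1167 ± 16.5 to 1996 ± 153 CPM (0.77). HNRNPA1 fell, from 2570 ± 99.8 to 2314 ± 138 CPM (log2 fold change -0.15, edgeR adjusted p = 0.017), with overlapping groups. Its call was lost with RLE size factors (adjusted p = 0.060), without PZH replicate 1 (-0.10, edgeR adjusted p = 0.0695) or 3 (-0.13, edgeR adjusted p = 0.0635), and with the length trend removed (-0.061, edgeR adjusted p = 0.365). Without scaling factors 12 of the 19 were higher and 4 lower, beside 29.8% and 51.1% of all genes tested.

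Of 12 tested genes of mTORC1 and LARP1 control, the pathway that acts on TOP mRNAs, 4 rose (33.3%) and 7 fell (58.3%), with a median of -0.19, beside 39.3% and 40.9% of all genes tested. Without PZH replicate 2, 3 were higher and 6 lower. RHEB, the GTPase that activates mTORC1, rose from 76.8, 83.2, 78.3 and 85.5 CPM in DMSO to 133, 160, 150 and 156 CPM in PZH (log2 fold change 0.89 ± 0.06 SE). EIF4EBP1, which holds back the cap-binding protein until mTORC1 phosphorylates it, rose from 46.05 ± 1.54 to 83.3 ± 8.8 CPM (0.86 ± 0.06). Its relative EIF4EBP2 fell from 161 ± 4.26 to 81.8 ± 2.17 CPM (-0.98 ± 0.04), and MLST8, a subunit of mTORC1, fell from 38.6 ± 0.839 to 19.1 ± 1.38 CPM (-1.02 ± 0.07). LARP1, which binds the start of TOP mRNAs, fell from 249, 245, 244 and 250 CPM to 184, 179, 182 and 190 CPM (-0.43 ± 0.04 SE, edgeR adjusted p = 3.8e-09). In these 5 genes the groups did not overlap.

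Of 13 tested factors that carry ribosomal proteins or finish the subunits, 4 rose (30.8%) and 8 fell (61.5%), with a median of -0.20, beside the same 39.3% and 40.9%. EFL1 and SBDS, which together release the factor EIF6 from new large subunits, rose from 30.0 ± 1.12 to 110 ± 4.23 CPM (log2 fold change 1.87 ± 0.05 SE) and from 43.1 ± 1.68 to 111 ± 4.91 CPM (1.37 ± 0.05 SE). HEATR3, which brings RPL5 into the nucleus, fell from 26.6 ± 1.46 to 8.50 ± 1.51 CPM (-1.64 ± 0.10 SE). MRTO4, an assembly factor that holds the place of the stalk, fell from 109 ± 3.98 to 49.8 ± 4.18 CPM (-1.13 ± 0.06 SE). NMD3, the export factor tied above to RPL10, rose from 124 ± 3.56 to 222 ± 7.73 CPM (0.84 ± 0.04 SE). Factors tied to single members thus went both ways. RPL5 and RPLP0 rose while HEATR3 and MRTO4 fell, and RPL10 and NMD3 both rose.

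Of 12 tested genes for the rescue of stalled ribosomes and the disposal of their products, 8 rose (66.7%) and 2 fell (16.7%), with a median of 0.37. Of all genes tested 39.3% were higher and 40.9% lower. Without scaling factors 6 of the 12 were higher and 5 lower, with a median of 0.11, beside 29.8% and 51.1% of all genes tested. LTN1, the ligase that marks unfinished chains on split large subunits, rose from 16.7, 17.3, 14.3 and 14.7 CPM in DMSO to 63.8, 53.6, 77.0 and 67.5 CPM in PZH (log2 fold change 2.05 ± 0.09 SE, edgeR adjusted p = 1.8e-15). RNF10, which marks small subunit proteins, rose from 134 ± 4.22 to 310 ± 21.0 CPM (1.21), PELO, which splits stalled ribosomes, from 38.5 ± 1.00 to 85.9 ± 4.11 CPM (1.16), and RNF14 from 44.8 ± 1.86 to 93.3 ± 1.38 CPM (1.06). In all 4 genes the PZH libraries were above all DMSO libraries. These lists, like the members, are described by counts and medians, with no test of the list.

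Ribosomal proteins of the mitochondrion, which work on a separate ribosome, were more often lower than higher. Of 77 tested, 14 were higher (18.2%) and 50 lower (64.9%), with a median log2 fold change of -0.35, beside 40.9% of all genes tested lower. Without scaling factors 62 were lower, beside 51.1% of all genes tested. Their interquartile range was 0.623, wider than the 0.197 of the cytosolic set.

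**Figure D5:**
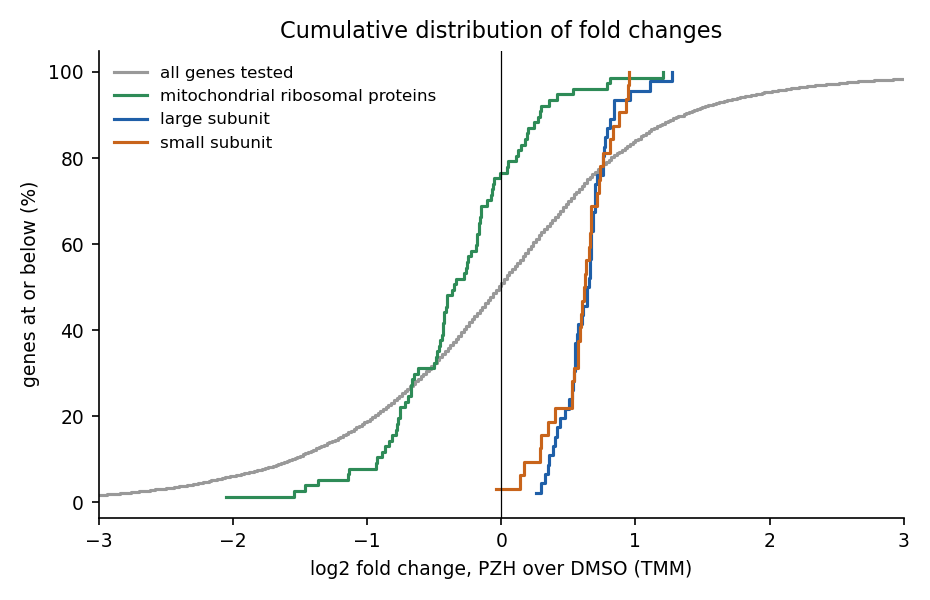
Share of genes (percent) at or below each log2 fold change, PZH over DMSO, for all 15006 genes tested, 77 mitochondrial ribosomal protein genes, and the 46 large and 32 small subunit genes of the cytosolic ribosome. The curves of both cytosolic subunits rise steeply around their medians of 0.65 and 0.62, right of the curve for all genes, whose axis is shown from -3 to 3, and of the mitochondrial curve with its median of -0.35.

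Length, GC content and level were set beside the differences. Across the 78 genes, which share the same libraries, the log2 fold change had a Pearson correlation of 0.03 with log2 transcript length, -0.08 with GC content and -0.25 with the mean level. The Spearman correlations were -0.018, -0.017 and -0.025 in the same order; these are descriptions over genes and not over samples. Of 1869 other tested genes with a transcript of up to 1000 bases, 37.8% were higher and 30.1% lower, with a median of 0.15, and the 44 members of that length had a median of 0.63. The part of length in the members' values was tested only by removing the trend, with the calls lost that are given above. The order of the members by level was largely kept, with a Spearman correlation of 0.97 between CPM per kilobase in DMSO and in PZH. The median level per kilobase went from 875 to 1292 CPM in the large subunit and from 871 to 1342 CPM in the small one. Lengths are those of GENCODE principal transcripts, which can exceed the mature mRNA for a few genes.

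The libraries held 18144117 to 19917571 counts. Epithelial markers (7 genes) summed to between 3846 and 3913 CPM in DMSO and between 2382 and 2707 CPM in PZH, without scaling factors. Most of this gap was KRT8, at 2053 ± 20.1 and 897 ± 58.1 CPM (SD, n = 4). By edgeR with TMM, KRT8 and CDX2 were lower, CDH1 (log2 fold change 1.64) and EPCAM (0.11) were higher, KRT18 and KRT19 did not pass, and VIL1 was not tested; EPCAM is lower on the unscaled CPM scale, at 303 ± 9.95 and 273 ± 7.39. Fibroblast markers (7 genes) summed to 11.7 to 14.3 CPM in DMSO and 17.5 to 21.3 CPM in PZH with COL1A2 at 0 counts, and endothelial, immune and erythroid markers to at most 3.11 CPM in any library. The part of these levels in the ribosomal protein values was not tested.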

How the data were processed

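The 8 libraries, 4 PZH and 4 DMSO, hold poly(A) RNA of HCT116 cells. Per the labels' protocols, RNA was taken with Trizol and libraries were made with a NEBNext Ultra kit. DESeq 1.28.0, StringTie 1.3.3b, HISAT2 2.1.0 and FastQC 0.11.5 appear, with no role, in the submitters' processing notes; for build, annotation and strand, nothing is given in the sources used here. What the authors deposited are whole-number counts per gene symbol, not normalized, for 35394 genes; 4655 had no count, and 25 names had become dates and stayed in library sizes and tests.

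Genes were kept by edgeR's filterByExpr (minimum count 10, minimum total 15) and scaled by TMM. The 2 groups were compared by the quasi-likelihood F test of edgeR, two-sided, with group as the only term, Benjamini-Hochberg adjusted over all 15006 genes at 0.05, in a script tested on simulated data. Levels are TMM-scaled CPM unless stated. Shares of counts used all counts of a library. Counts of replicates differed beyond counting noise in every pair (chi-square over degrees of freedom at least 2.39), so none was a duplicate. Alternatives were other scaling, filters, DESeq2, limma-voom, a replicate block, and leaving out each library; trends on GC and length were removed in analyses added after seeing the data. Members and lists were chosen with earlier results of these data known. Named genes were the 6 most and 6 least changed members of each subunit, the 4 most abundant, and those of 5 role lists. To these came RPS6, RPS19, RPL10, RPL22, the paralogs, RACK1, and up to 4 called genes of each other list, by smallest p. HNRNPA1, RPL17, RPL26, RPL9 and RPL7 were named after their values were seen. LARP1 and HEATR3 were named outside the rule of smallest p. Values of some single genes are not reported here. Tools were Python 3.11.15 with matplotlib 3.10.9, and R 4.3.3 with DESeq2 1.42.0, limma 3.58.1 and edgeR 4.0.16.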

Additional observations from a re-analysis of the deposited data

Results flagged for a closer look

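In groups of 4 libraries, a sample was marked when its gap to the nearest other sample exceeded 0.829 of the group's range (Dixon's 95% critical value). Of 134 groups checked, 12 had such a sample, where chance gives about 1 in 20. PZH replicate 2 was the high sample in 8 of them: RPL37 (935.1 CPM), RPL3 (4232 CPM), RPL6 (1506 CPM), RPL22 (706.5 CPM), RPS24 (1003 CPM), RPS15 (402.9 CPM), RPS6 (2341 CPM) and RPL5 (1841 CPM). DMSO replicate 2 was high in RPL37 (454.6 CPM). DMSO replicate 3 was low in RPLP1 (806.9 CPM) and RPL22L1 (192.0 CPM), and PZH replicate 1 was low in EEF2 (5336 CPM). The genes share their libraries, so these marks are not independent of each other.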

How the results depend on the processing

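The count of members higher in PZH stayed between 67 and 78 in every alternative run, and between 76 and 77 when single libraries were left out. Without scaling factors 2 members were lower, both of the small subunit, and the medians were 0.39 (large) and 0.36 (small). With single libraries left out, the medians ran from 0.55 to 0.69 (large) and from 0.53 to 0.67 (small). The differences in share of counts were 1.59 percentage points for all members and 1.07 for the large subunit; without the 10 most abundant other genes they were 2.11 and 1.40, and without single libraries they ran from 1.27 to 1.79 and from 0.873 to 1.19. The difference in the ratio of large to small subunit counts was 0.0781, and 0.0677 to 0.0848 without single libraries. With RPS2 taken out of the small subunit sums, the ratios of the groups overlap, as given above. The replicate numbers were not taken to pair the samples, since over all genes tested the deviations of same-numbered libraries correlated between -0.0025 and 0.0088. Among the members, though, replicate 2 was the highest library of both groups in most genes (60 and 76 of 78), and 76 of 78 had a lower adjusted p with the block. With the replicate number as a block, 77 members were higher and 0 lower. All 63 named genes checked in this way kept their direction and call.

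These genes changed sign. Without scaling factors: RPS26 (-0.12), RPSA (-0.091), RPL7L1 (-0.26) and RPL36AL (-0.037). With upper quartile factors: RPL7L1 (-0.071). With no filter: RPL7L1 (-0.011). With the GC trend removed: RPS2 (0.17) and RPL7L1 (-0.056). With the length trend removed: RPS27L (0.051). With 1 library left out, RPS2 ran from -0.095 to 0.021, above 0 without PZH replicate 1. RPS27L ran from -0.070 to 0.033, above 0 without PZH replicate 4. RPL7L1 ran from -0.021 to 0.037, below 0 without DMSO replicate 2 or 3 or PZH replicate 2. The cause was not tested.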
